A study of Mus musculus with 9 samples.

Results

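The genes of cholesterol synthesis, sterol sensing, sterol transport and cholesterol efflux were examined in mouse macrophages. They were chosen by name: every non-control spot of the arrays whose gene name is 1 of 28 listed symbols (Sc4mol is the older name of Msmo1) was taken, which gave 37 probes for 28 genes out of 16463 genes tested. The list holds 18 enzymes of synthesis, 5 genes of sterol sensing and 5 of sterol transport, storage and efflux. It holds no receptor for cholesterol uptake. All 28 genes had a probe well above background on every PEC array, so that none was lost to the filter on dim probes, and through PEC alone they would have passed it.

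The 9 arrays were single-colour arrays in 3 groups of 3, each hybridised with Cy3-labelled total RNA of macrophages from C57BL/6J mice. The control group was peritoneal exudate cells (PEC), cells collected from the peritoneal cavity. The other 2 groups were tumour-associated macrophages (TAM) of a fibrosarcoma, split by their level of the surface protein F4/80, encoded by Adgre1, into F4/80high TAM and F4/80low TAM. No treatment or genetic change is given for any group. The arrays of a group are described as biological replicates. Separate animals are not mentioned, so that p-values measure the spread between these samples, which may be technical in part. Each level below is the log2 of the probe's intensity relative to the 75th percentile of its own array, so that 0 is the 75th percentile and a difference of 1 is a 2-fold change. Levels of different probes are not comparable, and each gene is set only against itself.

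Cells make cholesterol from acetyl-CoA. The mevalonate pathway leads to farnesyl diphosphate, from which the sterol branch builds squalene, lanosterol and then cholesterol, while other branches make isoprenoids. When sterols in the endoplasmic reticulum are scarce, SCAP escorts the transcription factor SREBP-2 to the Golgi, where it is cleaved and freed to switch on the enzymes. When sterols are plentiful, INSIG proteins hold SCAP back, and oxysterols activate the LXR receptors, which switch on the efflux pumps ABCA1 and ABCG1. Macrophages take up much cholesterol with the cells and debris they engulf, and so are known for storing it as esters and for exporting it.

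Most of these genes were lower in the tumour macrophages than in PEC. In F4/80high TAM, 21 of the 28 genes were lower than in PEC and 0 were higher, at an adjusted p under 0.05 in limma's test over all genes. Among all 16463 genes, 53.1% passed that test in either direction, 28% as lower and 25% as higher. The median log2 difference of the 28 genes was -1.70, beside 0.00 over all genes. In F4/80low TAM, 24 of the 28 genes were lower than in PEC and 0 were higher, where 51.9% of all genes passed in either direction, 29.2% as lower and 22.7% as higher. Their median difference was -1.21, beside -0.09 over all genes.

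The 2 tumour subsets also differed from each other. Between F4/80high and F4/80low TAM, 11 of the 28 genes were lower in the F4/80high cells and 2 were higher, where 32.6% of all genes passed, 14% as lower and 18.6% as higher. The median difference was -0.53, beside 0.08 over all genes. Wherever one of the 28 genes passed, the arrays of the 2 groups compared did not overlap. Regardless of the test, 23 genes had all F4/80high arrays below all PEC arrays and 0 had them above (34% and 31.2% of all genes), 25 had all F4/80low arrays below PEC and 0 above (33.2% and 26% of all genes), and 14 had all F4/80high arrays below all F4/80low arrays and 2 above (19.7% and 27% of all genes). Both comparisons with PEC use the same 3 PEC arrays and are therefore not independent. In RNA from a cell population, fewer cells of a type and less RNA per cell cannot be told apart.

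The size of a fold change depended on the background correction, most of all for dim probes. With the normexp correction, which adds an offset of 50 intensity units, 10 of the 21 called differences in F4/80high TAM against PEC, 5 of the 24 in F4/80low TAM against PEC and 5 of the 13 between the subsets were more than 1.5 times smaller as folds, by up to 6.52, 2.33 and 4.8 times. The 75th percentile of the arrays lay at 53.5 to 97.3 intensity units, so that the added offset by itself shrinks the folds of dim probes. The parts of the offset and of the correction were not separated. Folds with normexp are given below beside the genes concerned. No called difference changed direction with normexp.

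**Figure D1:**
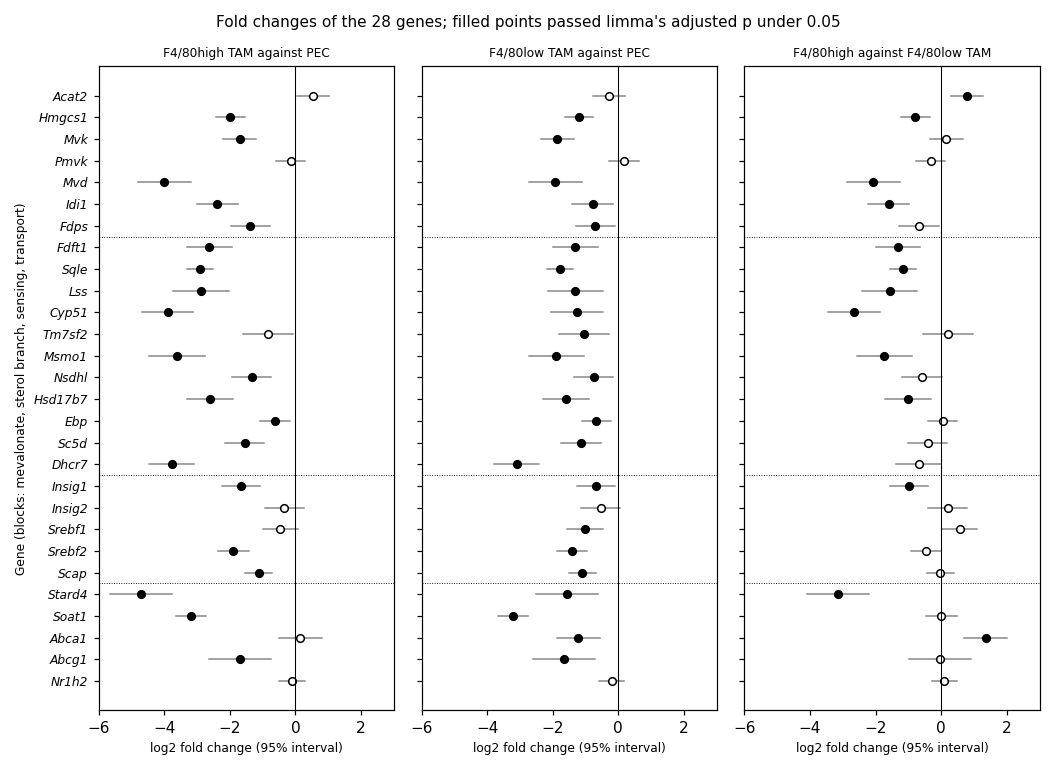
Log2 fold changes of the 28 genes (horizontal axis, points) with 95% intervals (lines) in the 3 comparisons, ordered by role down the vertical axis; filled points had an adjusted p under 0.05. In both comparisons with PEC the filled points all lie below 0, and in the comparison of the subsets 11 lie below 0 and 2, Acat2 and Abca1, above it.

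By pattern, 11 genes were lower in both tumour subsets than in PEC and lower again in the F4/80high than in the F4/80low subset. They were Hmgcs1, Mvd, Idi1, Fdft1, Sqle, Lss, Cyp51, Msmo1, Hsd17b7, Insig1 and Stard4. Another 10 were lower in both subsets than in PEC with no call between the subsets (Mvk, Fdps, Nsdhl, Ebp, Sc5d, Dhcr7, Srebf2, Scap, Soat1 and Abcg1). Srebf1 and Tm7sf2 passed only as lower in F4/80low TAM than in PEC. Abca1 passed as lower in F4/80low TAM than in PEC and as higher in F4/80high than in F4/80low TAM, Acat2 only as higher in F4/80high than in F4/80low TAM, and Pmvk, Insig2 and Nr1h2 in none of the 3.

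SREBPs bind sterol regulatory elements, often beside a CCAAT box bound by NF-Y, so the 250 bases before the start of transcription were read for the genes in RefSeq's promoter table (mouse build GRCm38.p6). The table held 23 of the 28 genes, with 31 start sites. Both strands were searched for TCACNCCAC (a sterol regulatory element, SRE, where N is any base) and for CCAAT. The SRE letters were in 1 of the 31 windows (3.23%), that of Hmgcs1, beside 1.05% of all 32851 windows in the table. CCAAT was in 20 of the 31 windows (64.5%) of 19 genes, beside 33.8% of all windows. It was present in each of the 8 genes in the table that were lower in all 3 comparisons, in 7 of the 8 that were lower only against PEC in both subsets (all but Scap), and in 4 of the other 7 (not in Acat2, Abca1 and Nr1h2). The counts by pattern of calls are of genes, and a gene with several start sites has several windows. The share of all genes with CCAAT was not computed, so these counts have no background of their own. All of the counts describe letters in a window and are not evidence that a factor binds there.

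Windows of 5 genes are shown because they span the range of responses of the synthesis enzymes, from Mvd, Msmo1, Idi1 and Hmgcs1, lower in all 3 comparisons, to Acat2, which was not lower in either comparison with PEC. Capitals mark every match to the SRE or to CCAAT, which reads ATTGG where the match is on the opposite strand; the 2 motifs did not overlap in these windows. Each runs 5′ to 3′ along the gene's own strand and ends at the base before the start of transcription. Hmgcs1 lies on the plus strand (chr13:119690101-119690350), as does Idi1 (chr13:8885356-8885605), and Mvd (chr8:122443423-122443672), Msmo1 (chr8:64733579-64733828) and Acat2 (chr17:12960726-12960975) lie on the minus strand.
Hmgcs1: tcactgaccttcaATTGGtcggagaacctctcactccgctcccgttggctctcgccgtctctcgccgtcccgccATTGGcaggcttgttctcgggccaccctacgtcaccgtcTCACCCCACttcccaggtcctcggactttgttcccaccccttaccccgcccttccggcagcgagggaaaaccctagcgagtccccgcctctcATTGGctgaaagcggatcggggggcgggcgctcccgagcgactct
Mvd: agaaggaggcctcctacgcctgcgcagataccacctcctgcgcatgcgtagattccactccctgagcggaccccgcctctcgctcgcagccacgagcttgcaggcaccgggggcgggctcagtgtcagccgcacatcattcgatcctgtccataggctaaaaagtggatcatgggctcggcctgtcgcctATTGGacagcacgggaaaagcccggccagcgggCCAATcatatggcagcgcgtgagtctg
Idi1: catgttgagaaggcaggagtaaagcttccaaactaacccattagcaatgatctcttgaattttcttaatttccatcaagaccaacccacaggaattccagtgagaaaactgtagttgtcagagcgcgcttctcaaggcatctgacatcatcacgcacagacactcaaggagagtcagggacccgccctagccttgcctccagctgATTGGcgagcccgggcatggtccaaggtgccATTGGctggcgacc
Msmo1: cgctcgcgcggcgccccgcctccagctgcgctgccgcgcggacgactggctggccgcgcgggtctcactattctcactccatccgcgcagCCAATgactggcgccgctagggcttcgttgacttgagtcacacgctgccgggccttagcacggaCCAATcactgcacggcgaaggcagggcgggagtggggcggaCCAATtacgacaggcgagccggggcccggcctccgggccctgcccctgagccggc
Acat2: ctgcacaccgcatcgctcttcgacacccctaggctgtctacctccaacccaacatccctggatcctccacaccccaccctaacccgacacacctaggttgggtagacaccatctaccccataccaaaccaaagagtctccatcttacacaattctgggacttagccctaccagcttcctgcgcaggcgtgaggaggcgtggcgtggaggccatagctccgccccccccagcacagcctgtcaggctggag
The window of Hmgcs1 held the SRE letters with their first base 137 bases before the start, and 3 CCAAT boxes on the opposite strand. That of Msmo1 held 3 CCAAT boxes, those of Mvd and Idi1 held 2 each, and that of Acat2 held neither motif. Acat2 does not stand for all enzymes that were not lower. Pmvk, which passed in none of the 3 comparisons and is not shown, had CCAAT with its first base 136 bases before the start.

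Of the 7 genes of the mevalonate pathway, 5 were lower in each tumour subset than in PEC, and 3 were lower and 1 higher in F4/80high than in F4/80low TAM. The 2 that passed in neither comparison with PEC were Acat2 and Pmvk. The shares that passed were 71.4%, 71.4% and 57.1%, beside 53.1%, 51.9% and 32.6% of all genes in either direction. Hmgcs1, the cytosolic HMG-CoA synthase, read 5.60, 5.03 and 5.45 on the PEC arrays, 3.45, 3.21 and 3.46 on the F4/80high arrays and 4.31, 4.18 and 3.99 on the F4/80low arrays. The 3 groups were fully separated, in the order PEC, F4/80low, F4/80high. The difference from PEC was -1.99 ± 0.19 (log2, SE) in F4/80high TAM, or 3.97-fold lower (adjusted p = 3.78e-05), and -1.20 ± 0.19 in F4/80low TAM, or 2.3-fold lower (adjusted p = 9.48e-04). The 2 subsets differed by -0.79 ± 0.19 (adjusted p = 0.0129), a call that was lost without F4/80high replicate 2 (-0.71, adjusted p = 0.0552) and with arrays centred on their median (-0.47, adjusted p = 0.189).

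Mvd, the decarboxylase that makes isopentenyl diphosphate, read 2.94, 2.41 and 2.92 on the PEC arrays, -0.83, -0.93 and -1.97 on the F4/80high arrays and 1.31, 0.91 and 0.28 on the F4/80low arrays with a probe at chr8:124957750-124957809 (mm9). It was 16-fold lower in F4/80high TAM than in PEC (-4.00 ± 0.36, adjusted p = 2.21e-05) and 3.8-fold lower in F4/80low TAM (adjusted p = 0.00199). Here too no array of one group reached the range of another, and the subsets differed 4.21-fold (adjusted p = 0.00221). The signal was well above background on 2 of the 3 F4/80high arrays, and with normexp the F4/80high folds were 5.82 against PEC and 1.86 between the subsets. Idi1, the isomerase that follows it, read 3.57, 3.06 and 3.52 on the PEC arrays, 1.51, 0.78 and 0.72 on the F4/80high arrays and 2.84, 2.76 and 2.20 on the F4/80low arrays (probe at chr13:8891524-8891583, mm9). Its difference from PEC was -2.38 ± 0.27 in F4/80high TAM (adjusted p = 1.00e-04) and -0.78 ± 0.27 in F4/80low TAM (adjusted p = 0.0383). The subsets differed by -1.60 ± 0.27 (adjusted p = 0.00215). The F4/80low call was lost when any 1 of 4 arrays was left out (PEC replicates 1 and 3 and F4/80low replicates 2 and 3, adjusted p from 0.0552 to 0.121).

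Mvk, mevalonate kinase, fell by about as much in both subsets: its mean was 4.21 ± 0.27 in PEC, 2.51 ± 0.26 in F4/80high and 2.35 ± 0.27 in F4/80low TAM (SD, n = 3). The subsets differed by 0.16 with a 95% interval of -0.34 to 0.66. Fdps, which makes farnesyl diphosphate, was 2.6-fold lower in F4/80high TAM (adjusted p = 0.0021) and 1.63-fold lower in F4/80low TAM. The adjusted p of the second, 0.0498, lay at the threshold and rose above it when any 1 of 5 arrays was left out (PEC replicates 1 and 3, F4/80high replicate 2 and F4/80low replicates 2 and 3, adjusted p from 0.0664 to 0.155). With the replicate number as a block among the 6 tumour arrays, Fdps also differed between the subsets (-0.67, adjusted p = 0.0398), as it did with quantile normalization (-0.89, adjusted p = 0.0221) and without F4/80high replicate 1 or F4/80low replicate 3 (adjusted p = 0.0464 and 0.0357).

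Pmvk, phosphomevalonate kinase, did not pass in any comparison, with means of 4.28 ± 0.33 in PEC, 4.13 ± 0.12 in F4/80high and 4.45 ± 0.16 in F4/80low TAM. The interval of its difference from PEC was -0.60 to 0.30 in F4/80high TAM, which excludes the size of the change of its neighbours Mvk and Mvd. Acat2, the cytosolic thiolase that joins acetyl-CoA units at the start of the pathway, read -0.54, -1.22 and -0.80 on the PEC arrays, -0.20, -0.24 and -0.55 on the F4/80high arrays and -1.17, -1.33 and -0.91 on the F4/80low arrays. Its F4/80high arrays lay above all F4/80low arrays, by 0.80 ± 0.22 or 1.74-fold (adjusted p = 0.02), while both subsets overlapped PEC. This call was lost without F4/80high replicate 1 or 2 or F4/80low replicate 2 (adjusted p from 0.064 to 0.0698) and with another background correction (normexp, 0.28, adjusted p = 0.0988). Against PEC, Acat2 passed as higher in F4/80high TAM without PEC replicate 1 (0.68, adjusted p = 0.0316) and as lower in F4/80low TAM with arrays centred on their median (-0.75, adjusted p = 0.0345).

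**Figure D2:**
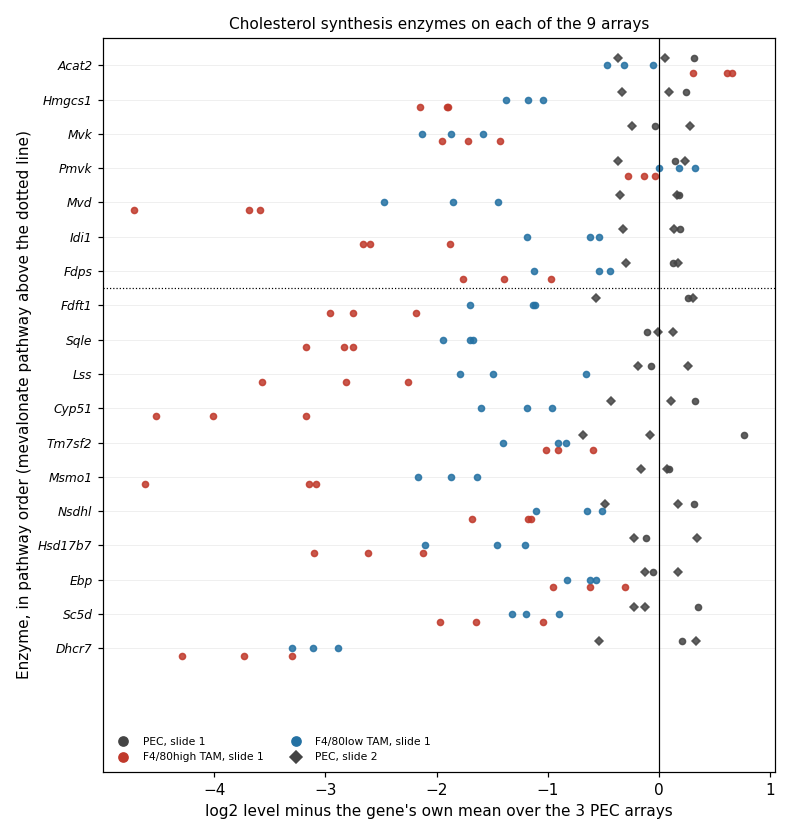
Level of each of the 18 synthesis enzymes on each of the 9 arrays, as the log2 level minus the gene's own mean over the 3 PEC arrays (horizontal axis), in pathway order down the vertical axis; circles are arrays of slide 1 and diamonds those of slide 2. The F4/80high points lie farther left than the F4/80low points for most enzymes from Mvd to Hsd17b7, while the points of Acat2 and Pmvk stay near 0.

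Of the 11 genes of the sterol branch, 10 were lower in F4/80high TAM and 11 in F4/80low TAM than in PEC. Between the subsets, 6 were lower in F4/80high TAM and 0 were higher. The shares that passed were 90.9%, 100% and 54.5%, beside 53.1%, 51.9% and 32.6% of all genes in either direction. Sqle, squalene epoxidase, a controlling step of the branch, read 4.48, 4.58 and 4.71 on the PEC arrays, 1.75, 1.41 and 1.83 on the F4/80high arrays and 2.92, 2.88 and 2.65 on the F4/80low arrays. It had a narrow spread in every group, and its differences were -2.92 ± 0.17 in F4/80high TAM against PEC (adjusted p = 2.46e-06), -1.77 ± 0.17 in F4/80low TAM against PEC (adjusted p = 5.60e-05) and -1.15 ± 0.17 between the subsets (adjusted p = 0.00118). Its probe lay at chr15:59162688-59162747 (mm9).

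Cyp51, the lanosterol demethylase, read 1.21, 0.45 and 0.99 on the PEC arrays, -2.29, -3.64 and -3.13 on the F4/80high arrays and -0.30, -0.08 and -0.72 on the F4/80low arrays. Only 1 of the 3 F4/80high arrays was well above background, so the fold is given as a bound, with the other F4/80high arrays raised to the lowest signal well above background on the same array. Cyp51 was at least 8.71-fold lower in F4/80high TAM (adjusted p of the measured values = 2.27e-05) and 2.38-fold lower in F4/80low TAM (adjusted p = 0.0151) than in PEC. It was at least 3.66-fold lower in the F4/80high than in the F4/80low subset (adjusted p of the measured values = 5.80e-04). Both bounds depend on the background correction and its offset, since with normexp these folds were 2.91 and 1.68. The F4/80low call did not hold without F4/80low replicate 3 (-1.07, adjusted p = 0.0517).

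Msmo1, the methylsterol monooxygenase that acts after Cyp51, read 6.09, 5.83 and 6.06 on the PEC arrays, 2.91, 2.84 and 1.37 on the F4/80high arrays and 4.36, 4.13 and 3.82 on the F4/80low arrays. Even its highest F4/80low array lay below every PEC array, and F4/80high replicate 3 was the lowest of all. It was 12.3-fold lower in F4/80high TAM than in PEC (adjusted p = 5.39e-05), 3.71-fold lower in F4/80low TAM than in PEC (adjusted p = 0.00288) and 3.31-fold lower in the F4/80high than in the F4/80low subset (adjusted p = 0.00712).

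Fdft1, squalene synthase, and Lss, lanosterol synthase, followed the same order of groups. Fdft1 fell by 2.63 ± 0.30 in F4/80high TAM (adjusted p = 9.99e-05) and by 1.32 ± 0.30 in F4/80low TAM (adjusted p = 0.00607), with 3.91-fold in place of 6.21-fold for the first with normexp. Lss was well above background on 1 of the 3 F4/80high arrays. With the others raised to the lowest signal well above background, it was at least 6.18-fold lower there than in PEC (adjusted p of the measured values = 2.04e-04) and at least 2.48-fold lower than in F4/80low TAM (adjusted p of the measured values = 0.0111), beside 2.18-fold and 1.37-fold with normexp. In F4/80low TAM Lss fell by 1.31 ± 0.37 against PEC (adjusted p = 0.016), or 2.49-fold, and 1.59-fold with normexp. The difference of Fdft1 between the subsets, -1.32 ± 0.30 (adjusted p = 0.00945), was not called when its 2 probes were averaged (-0.84, adjusted p = 0.0734). The F4/80low call of Lss was lost without PEC replicate 3 (adjusted p = 0.059). Hsd17b7, a keto-reductase of the branch, was 6.12-fold lower in F4/80high TAM and 3.01-fold lower in F4/80low TAM than in PEC (adjusted p = 1.24e-04 and 0.00267), or 2.21-fold and 1.8-fold with normexp. Its signal was well above background on 2 of the 3 F4/80high arrays. The difference of Hsd17b7 between the subsets was -1.02 ± 0.31 (adjusted p = 0.0325), or 2.03-fold, and 1.23-fold with normexp (adjusted p = 0.1435). That call was lost under 12 of the 20 alternatives tried, among them leaving out F4/80high replicate 1 or 3 or F4/80low replicate 1 or 2 (adjusted p from 0.0779 to 0.107).

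Dhcr7, the reductase that makes cholesterol from its direct precursor, read 2.11, 1.36 and 2.24 on the PEC arrays, -1.83, -1.40 and -2.39 on the F4/80high arrays and -1.21, -1.40 and -0.98 on the F4/80low arrays (probe at chr7:151033874-151033933, mm9). The 2 subsets overlapped each other and lay far below PEC, and 2 of the 3 F4/80high arrays were well above background. The difference from PEC was -3.78 ± 0.30 in F4/80high TAM and -3.10 ± 0.30 in F4/80low TAM (adjusted p = 1.24e-05 and 5.44e-05), or 13.7-fold and 8.57-fold, and 4.17-fold and 3.69-fold with normexp. That between the subsets was -0.68 with an interval of -1.36 to 0.01.

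Sc5d, a sterol desaturase, was 2.93-fold and 2.2-fold lower in F4/80high and F4/80low TAM (adjusted p = 0.0011 and 0.00659). Nsdhl, a sterol dehydrogenase, was 2.53-fold and 1.69-fold lower (adjusted p = 0.00262 and 0.0401), with 1.6-fold for the first with normexp, the second of which was lost without any 1 of 6 arrays (PEC replicates 1 and 3, F4/80high replicates 1 and 2, F4/80low replicates 2 and 3, adjusted p from 0.0511 to 0.124), and with the replicate number as a block among the 6 tumour arrays its subsets differed (-0.58, adjusted p = 0.0493). Ebp, a sterol isomerase, differed from PEC by -0.63 ± 0.20 in F4/80high and -0.67 ± 0.20 in F4/80low TAM (adjusted p = 0.0249 and 0.0194). Leaving out PEC replicate 3 ended both of its calls (adjusted p = 0.0906 and 0.0748), F4/80high replicate 2 or 3 ended the first (adjusted p = 0.0631 and 0.0911) and F4/80low replicate 2 the second (adjusted p = 0.0606).

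Tm7sf2, a sterol reductase, had the most uneven PEC arrays of the enzymes, at 2.68, 1.22 and 1.83. It averaged 1.07 ± 0.22 in F4/80high TAM, which missed the threshold (adjusted p = 0.0635), and 0.86 ± 0.31 in F4/80low TAM, which passed it (adjusted p = 0.0283). The subsets overlapped and differed by 0.21 (interval -0.56 to 0.98). Without PEC replicate 2, the lowest of the PEC arrays, F4/80high TAM also passed (-1.18, adjusted p = 0.0136), as it did with normexp (-0.79, adjusted p = 0.0251) and with median centring (adjusted p = 0.0246), and without PEC replicate 1, PEC replicate 3 or F4/80low replicate 3 F4/80low TAM did not (adjusted p from 0.0624 to 0.0886).

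Over the 18 enzymes together, 15 were lower in F4/80high TAM and 16 in F4/80low TAM than in PEC, with median log2 differences of -2.18 and -1.22. Between the subsets, 9 were lower in F4/80high TAM and 1 was higher, with a median of -0.73. The shares that passed were 83.3%, 88.9% and 55.6%, beside 53.1%, 51.9% and 32.6% of all genes in either direction. The median over the 18 enzymes of the level minus the gene's PEC mean was 0.19, -0.33 and 0.17 on the 3 PEC arrays, -1.93, -2.14 and -2.28 on the F4/80high arrays and -1.08, -1.16 and -1.39 on the F4/80low arrays. The 3 groups did not overlap in this median. The sterol branch was farther from PEC than the mevalonate genes on each of the 6 tumour arrays, at -2.76, -2.18 and -2.82 against -1.88, -1.71 and -1.76 in F4/80high TAM and at -1.18, -1.32 and -1.60 against -0.54, -0.62 and -1.18 in F4/80low TAM. This difference between the 2 sets of genes was not tested.

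**Figure D3:**
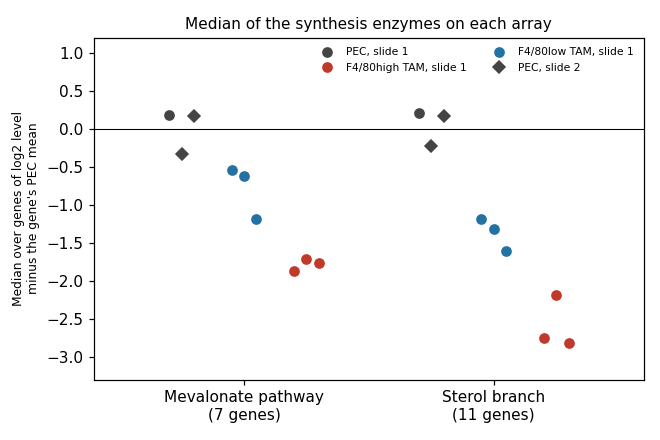
Median over the 7 mevalonate genes and over the 11 sterol branch genes of the log2 level minus the gene's PEC mean (vertical axis), 1 point for each array; circles are slide 1 and diamonds slide 2. In both sets the F4/80low arrays lie below the PEC arrays and the F4/80high arrays lie below the F4/80low arrays; the PEC array on slide 1 lies at 0.18 and 0.21.

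Of the 5 genes of sterol sensing, 3 were lower in F4/80high TAM and 4 in F4/80low TAM than in PEC, and 1 was lower in F4/80high than in F4/80low TAM. These are 60%, 80% and 20%, beside 53.1%, 51.9% and 32.6% of all genes that passed in either direction. As lower alone, 28%, 29.2% and 14% of all genes passed. With 5 genes, the first share is near that of all genes and the last is below it. Insig1, which retains SCAP and is itself switched on by SREBPs, read 1.00, 0.36 and 0.68 on the PEC arrays, -0.90, -0.65 and -1.42 on the F4/80high arrays and -0.19, 0.31 and -0.14 on the F4/80low arrays. The F4/80high arrays lay below all others, 3.18-fold below PEC (adjusted p = 5.96e-04), or 1.82-fold with normexp. The difference between F4/80low TAM and PEC, -0.69 ± 0.26 (adjusted p = 0.049), was at the threshold and rose above it without any 1 of 6 arrays (PEC replicates 1 and 3, F4/80high replicates 1 and 2, F4/80low replicates 1 and 3, adjusted p from 0.05005 to 0.139). That between the subsets, -0.98 ± 0.26 (adjusted p = 0.0174), missed it without F4/80high replicate 3 or F4/80low replicate 2 (adjusted p = 0.0597 and 0.0586) and with arrays centred on their median (-0.67, adjusted p = 0.0875).

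Insig2, its relative, which also retains SCAP, averaged 2.26 ± 0.13 in PEC, 1.92 ± 0.03 in F4/80high and 1.72 ± 0.57 in F4/80low TAM and passed in no comparison. F4/80low replicate 3 stood at 2.38, above the 1.42 and 1.36 of the other two. With all arrays, Insig2 also passed as lower in F4/80low TAM than in PEC with normexp (-0.56, adjusted p = 0.0273) and with arrays centred on their median (-1.01, adjusted p = 0.0209). Without F4/80low replicate 3, Insig2 was lower in F4/80low TAM than in PEC (-0.87, adjusted p = 0.00364) and higher in F4/80high than in F4/80low TAM (0.53, adjusted p = 0.0426).

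Srebf2, which encodes SREBP-2, read 4.37, 4.23 and 4.68 on the PEC arrays, 2.49, 2.77 and 2.34 on the F4/80high arrays and 2.77, 3.28 and 2.97 on the F4/80low arrays. It was 3.71-fold lower in F4/80high TAM (adjusted p = 6.84e-05) and 2.68-fold lower in F4/80low TAM (adjusted p = 4.91e-04) than in PEC. The arrays of the subsets did not overlap, yet their difference did not pass (-0.47, adjusted p = 0.111). It passed with quantile normalization (-0.64, adjusted p = 0.0412) and in the authors' deposited log2 values (-0.63, adjusted p = 0.0134). The probes of Srebf2 disagreed in size: the dimmer probe differed from PEC by -0.47 in F4/80high TAM (adjusted p = 0.237) and by -0.08 in F4/80low TAM (adjusted p = 0.859), so that neither call was made by the dimmer probe alone; the brighter lay at chr15:82030068-82030127 (mm9).

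Scap, the escort of the SREBPs, fell by about the same amount in both subsets, from 3.61 ± 0.13 in PEC to 2.49 ± 0.10 in F4/80high and 2.52 ± 0.28 in F4/80low TAM (adjusted p = 8.25e-04 and 0.00117). Its difference between the subsets was -0.03, with an interval of -0.44 to 0.39. Srebf1, which encodes the SREBP-1 forms that drive fatty acid synthesis, read -0.40, -0.19 and -0.43 on the PEC arrays, -1.28, -0.45 and -0.66 on the F4/80high arrays and -1.64, -1.16 and -1.28 on the F4/80low arrays. It was lower in F4/80low TAM than in PEC (-1.02 ± 0.24, adjusted p = 0.00656), and in F4/80high TAM it did not pass (-0.46, adjusted p = 0.134). With normexp the F4/80low difference of Srebf1 was -0.29 (adjusted p = 0.0477). The subsets differed in Srebf1 without F4/80high replicate 1, the lowest of its group (0.81, adjusted p = 0.0237), and with arrays centred on their median (0.88, adjusted p = 0.0264).

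**Figure D4:**
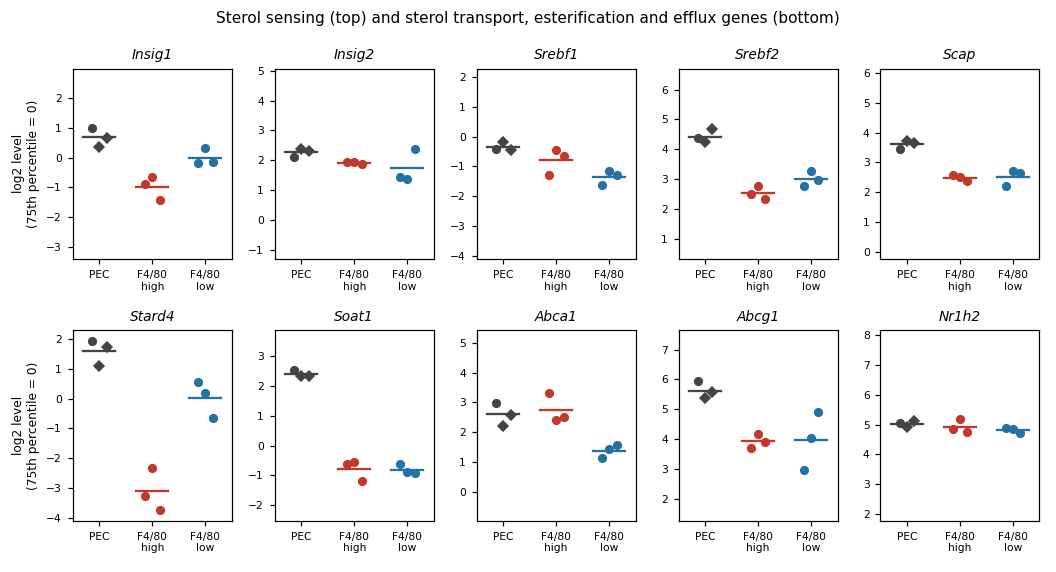
Log2 level (vertical axis, 0 is the array's 75th percentile, every panel spans the same range) of the 5 sensing genes (top) and the 5 transport, esterification and efflux genes (bottom) on each array, by group; bars are group means, circles slide 1, diamonds slide 2. Stard4 is lowest in F4/80high TAM, Soat1 and Abcg1 are low in both tumour groups, Abca1 is low in F4/80low TAM only, and the means of Nr1h2 are 5.03 ± 0.11, 4.93 ± 0.24 and 4.83 ± 0.08 (SD, n = 3).

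Of the 5 genes of sterol transport, esterification and efflux, 3 were lower in F4/80high TAM and 4 in F4/80low TAM than in PEC, and 1 was lower and 1 higher in F4/80high than in F4/80low TAM. The shares that passed were 60%, 80% and 40%, beside 53.1%, 51.9% and 32.6% of all genes in either direction. The first and last are near those of all genes. Stard4, a carrier that moves cholesterol between membranes inside the cell and a known SREBP target, read 1.92, 1.09 and 1.74 on the PEC arrays, -3.28, -2.33 and -3.75 on the F4/80high arrays and 0.54, 0.20 and -0.65 on the F4/80low arrays. No F4/80high array was well above background and all the others were, so only a bound can be given. Stard4 was at least 14.3-fold lower in F4/80high TAM than in PEC (adjusted p = 2.20e-05) and at least 4.87-fold lower than in F4/80low TAM (adjusted p = 6.07e-04), taking for each F4/80high array the higher of its own signal and the lowest signal well above background. These bounds depend on the background correction and its offset: with normexp the folds were 3.99 and 1.85. In F4/80low TAM it was 2.93-fold lower than in PEC (adjusted p = 0.0128). The dimmer probe of Stard4 gave a bound of at least 1.53-fold lower in F4/80high TAM than in PEC (adjusted p = 0.00582), and the same directions without a call for the other comparisons (-0.60, adjusted p = 0.245, and -1.16, adjusted p = 0.0575).

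Soat1, which esterifies cholesterol for storage in lipid droplets, read 2.54, 2.32 and 2.33 on the PEC arrays, -0.63, -0.56 and -1.20 on the F4/80high arrays and -0.62, -0.88 and -0.92 on the F4/80low arrays (probe at chr1:158358766-158358825, mm9). Both subsets lay far below PEC and within the same range as each other. Soat1 was 9.15-fold lower in F4/80high TAM and 9.21-fold lower in F4/80low TAM than in PEC (adjusted p = 3.74e-06 and 5.05e-06), or 4.37-fold and 4.43-fold with normexp. The subsets differed by 0.01, with an interval of -0.45 to 0.47.

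The 2 efflux pumps had different calls, a difference that was not itself tested. Abca1, which loads cholesterol onto lipid-poor apolipoprotein, read 3.00, 2.21 and 2.58 on the PEC arrays, 3.31, 2.39 and 2.50 on the F4/80high arrays and 1.12, 1.44 and 1.56 on the F4/80low arrays (probe at chr4:53043944-53044003, mm9). The F4/80high arrays overlapped PEC and the F4/80low arrays lay below both. Abca1 was 2.33-fold lower in F4/80low TAM than in PEC (adjusted p = 0.0071) and 2.57-fold higher in F4/80high than in F4/80low TAM (adjusted p = 0.00649), calls that held under each of the 20 and 21 alternatives tried. Its difference between F4/80high TAM and PEC was 0.14 (interval -0.51 to 0.80), and changed sign under several alternatives.

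Abcg1, which exports cholesterol to mature lipoprotein particles, read 5.93, 5.38 and 5.56 on the PEC arrays, 3.69, 4.16 and 3.91 on the F4/80high arrays and 2.96, 4.02 and 4.90 on the F4/80low arrays. Both subsets were below PEC, with differences of -1.70 ± 0.42 and -1.66 ± 0.42 (adjusted p = 0.00768 and 0.00922), and the F4/80low arrays were spread over more than those of the other groups. Nr1h2, which encodes LXR beta, an oxysterol receptor upstream of both pumps, averaged 5.03 ± 0.11 in PEC, 4.93 ± 0.24 in F4/80high and 4.83 ± 0.08 in F4/80low TAM. It passed in no comparison, with intervals of -0.49 to 0.28 and -0.59 to 0.18 against PEC. In F4/80low TAM against PEC it did pass as lower with normexp (-0.48, adjusted p = 0.0048) and with arrays centred on their median (-0.68, adjusted p = 0.04).

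For 9 of the genes, 1 further probe each was among those tested. These had the direction of the brighter probe for 9 of 9 genes in each comparison with PEC and for 7 of 9 between the subsets. The further probes of Fdft1, Hsd17b7, Nsdhl and Stard4 passed the filter on dim probes through the PEC arrays only. A lower tumour level is thus favoured by the filter for these probes, and their agreement against PEC is not separate support. The exceptions between the subsets were Mvk and Nsdhl, neither of which had passed there with its brighter probe. None of the further probes passed between the subsets. Among them were those of Fdft1 (-0.36, adjusted p = 0.55), Hsd17b7 (-0.48, adjusted p = 0.309) and Stard4, whose brighter probes had passed there. The further probe of Tm7sf2 did not pass in F4/80low TAM against PEC (-0.77, adjusted p = 0.0609).

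Related genes from 5 further lists, which share regulators or substrates with the pathway, are described by their counts, to be read against the 53.1%, 51.9% and 32.6% of all genes that passed in the 3 comparisons. Of 7 measured genes of fatty acid synthesis (12 listed), the targets of SREBP-1, 5 were lower in F4/80high TAM, 4 in F4/80low TAM and 0 higher in either than in PEC. Between the subsets 2 were lower and 1 higher in F4/80high TAM. Acss2, which makes acetyl-CoA from acetate, was at least 9.31-fold lower in F4/80high TAM than in PEC (adjusted p = 5.71e-05) and at least 4.42-fold lower than in F4/80low TAM (adjusted p = 0.00104), with no F4/80high array well above background. Scd2, a fatty acid desaturase, differed by -3.52 between F4/80high TAM and PEC (adjusted p = 0.000287) and by -2.52 between the subsets (adjusted p = 0.0038). Fads1, another desaturase, was lowest in F4/80low TAM (-2.77 against PEC, adjusted p = 0.00015).

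Among 8 partners of SREBP processing and sterol sensing, 2 were higher and 2 lower in F4/80high TAM than in PEC, 3 were lower in F4/80low TAM, and 3 were higher in F4/80high than in F4/80low TAM. Mbtps2, the protease that makes the final cut of the SREBPs, differed from PEC by -1.65 in F4/80high TAM and by -1.44 in F4/80low TAM (adjusted p = 5.51e-05 and 0.000165). Rnf139, a ubiquitin ligase of this system, was higher in F4/80high TAM than in PEC (1.01, adjusted p = 0.000555) and than in F4/80low TAM (1.35, adjusted p = 0.000279). The isoprenoid branch, which leaves the pathway at farnesyl diphosphate, was measured in 9 genes (10 listed), of which 2 were higher and 3 lower in F4/80high TAM, and 1 was higher and 3 lower in F4/80low TAM than in PEC, with medians of -0.04 and -0.02.

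Of 10 targets and partners of LXR, 3 were higher and 4 lower than in PEC in each subset. Between the subsets 4 were higher and 1 lower in F4/80high TAM. Ch25h, the enzyme that makes the oxysterol 25-hydroxycholesterol, averaged -3.08 ± 1.13 in PEC, 5.34 ± 0.62 in F4/80high TAM and 1.14 ± 0.84 in F4/80low TAM (SD, n = 3), and was well above background on 1 of the 3 PEC arrays. With the other PEC arrays raised to the lowest signal well above background, it was at least 195-fold higher in F4/80high TAM and at least 10.6-fold higher in F4/80low TAM than in PEC (adjusted p of the measured values = 6.18e-06 and 0.000451). On the log2 scale these bounds are 7.61 and 3.41, and the differences with normexp were 5.29 and 1.57. Ch25h was higher by 4.20 in F4/80high than in F4/80low TAM (adjusted p = 0.000872). The order of its group means, F4/80high above F4/80low above PEC, is the reverse of that of the 11 genes lower in all 3 comparisons. It is not particular to Ch25h. The means of Mylip, another gene of this list, were 1.38 in PEC, 1.93 in F4/80low and 3.29 in F4/80high TAM, and those of Stard3 had this order too. A link between Ch25h and the 11 genes was not tested. Nr1h3, which encodes LXR alpha, differed by -2.49 between F4/80low TAM and PEC (adjusted p = 0.000143) and was higher by 1.73 in F4/80high than in F4/80low TAM (adjusted p = 0.00183). Its difference between F4/80high TAM and PEC, -0.75, did not pass (adjusted p = 0.0516), though the arrays did not overlap. A link between Nr1h3 and the efflux pumps was not tested. Smpdl3a, an LXR-driven phosphodiesterase, differed from PEC by -2.82 in F4/80high and by -2.56 in F4/80low TAM (adjusted p = 1.05e-05 and 2.58e-05).

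Of 10 measured genes of intracellular sterol transport and ester turnover (11 listed), 2 were higher and 6 lower in F4/80high TAM, and 4 were lower in F4/80low TAM than in PEC. Nceh1, which hydrolyses the cholesterol esters that Soat1 makes, differed from PEC by -3.69 in F4/80high and by -4.39 in F4/80low TAM (adjusted p = 1.34e-05 and 7.16e-06). Stard3, a carrier at the late endosome, was higher in F4/80high TAM than in PEC (1.31, adjusted p = 0.000977). The 19 called differences given for 10 of these further genes passed under every alternative tried. With normexp those of Acss2 became -1.49 and -0.82, those of Scd2 -2.64 and -1.63, that of Fads1 -1.92 and those of Mbtps2 -0.61 and -0.55.

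Cell type markers moved with the groups. The summed level of 8 macrophage markers, in multiples of the 75th percentile, ranged from 947 to 1143 in PEC, from 849 to 1301 in F4/80high TAM and from 570 to 850 in F4/80low TAM. In F4/80low TAM Mertk was not above background. The log2 level of Adgre1, whose protein defined the subsets, ranged from 5.71 to 6.17 in PEC. It ranged from 5.71 to 6.21 in F4/80high TAM and from 2.45 to 3.44 in F4/80low TAM. Cd68 and Lyz2 were also lower in F4/80low TAM than in PEC, and Itgam and Fcgr1 overlapped PEC. Csf1r ranged from 8.74 to 9.07 in F4/80low TAM beside 9.20 to 9.29 in PEC. Cd14 was higher in F4/80low TAM, at 6.22 to 6.96 beside 5.06 to 5.76. In F4/80high TAM, Cd68 (3.59 to 3.91) and Csf1r (8.43 to 9.15) also lay below PEC, as did Itgam. Cd14 (7.77 to 8.54) and Fcgr1 lay above PEC in F4/80high TAM, and Lyz2 and Mertk overlapped it. The sum of 8 neutrophil markers ranged from 16.5 to 24.2 in PEC, from 13.9 to 102 in F4/80high TAM and from 1595 to 6419 in F4/80low TAM, where all 8 were above background and the highest value was that of replicate 1 (median 2013). That of 9 T and NK cell markers ranged from 2.73 to 5.24, from 3.43 to 4.71 and from 17.8 to 40.6, with 7 of 9 above background in F4/80low TAM. The sum of 6 dendritic cell markers ranged from 0.468 to 0.848 in PEC, from 34.8 to 43.6 in F4/80high and from 33.3 to 79.5 in F4/80low TAM, and in both tumour subsets most of it was Ccr7. Xcr1 and Cd209a were above background in no group, Flt3 and Clec9a on no F4/80high array, and Zbtb46 in F4/80high TAM only. For 8 proliferation markers the ranges were 1.08 to 4.66, 16.5 to 43.0 and 8.54 to 102, the last again from F4/80low replicate 1 alone (median 14.9). No B cell marker of 5 was above background on all arrays of a group, and 6 fibroblast markers ranged from 2.03 to 5.21 over all groups. Without F4/80low replicate 1, 23 cholesterol genes were lower in F4/80low TAM than in PEC and 10 were lower and 2 higher in F4/80high than in F4/80low TAM. Of all 16463 genes, 8047 and 4836 then passed in either direction, 4596 and 2036 of them as lower. The remaining F4/80low arrays still had neutrophil sums of 1595 and 2013, so leaving out replicate 1 does not take other cells out of the comparison. The part of other cells and of dividing cells in the differences of the cholesterol genes was not tested.

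The 75th percentile of signal was higher on the PEC arrays, at 76.2, 81.7 and 97.3 intensity units, than on the tumour arrays, at 53.5 to 71.0, with no overlap. On all arrays, 36.1 to 38.3% of spots were well above background, and no spot was saturated. All 6 tumour arrays and PEC replicate 1 were on slide 1, and PEC replicates 2 and 3 on slide 2, so that comparisons with PEC partly coincide with the slide. With the slide as a block, 21 of the 28 genes were lower in F4/80high TAM and 17 in F4/80low TAM than in PEC. Of all 16463 genes, 5632 and 4907 were then called in either direction, 2917 and 2707 of them as lower. Within slide 1, against the single PEC array there, the median differences were -1.95 and -1.46, both larger in size than over all arrays. The slide block gave the same differences, so that these are not separate checks. The fit within slide 1 has no spread of its own for PEC and borrows it from the tumour groups. Within slide 1 the F4/80low differences of Abcg1, Cyp51, Ebp, Fdps, Hsd17b7, Idi1, Insig1, Lss, Msmo1, Nsdhl, Srebf1 and Stard4 did not pass (adjusted p from 0.0514 to 0.177), nor did the F4/80high differences of Abcg1 (-2.01, adjusted p = 0.057) and Ebp (-0.58, adjusted p = 0.193). Tm7sf2 passed in F4/80high TAM (-1.60, adjusted p = 0.00941). The comparison of the subsets lies within slide 1.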

How the data were processed

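Total RNA from macrophages was hybridised to single-colour arrays, 3 for each of 3 groups. The authors deposited scanner tables of spot intensity made with Agilent Feature Extraction 10.5.1.1, per the file headers: background-subtracted processed signals, with outlier spots marked. They also deposited a table of log2 values for 9703 probes, whose normalization is not given in the sources used here; its columns had medians of 8.26 to 8.35 and correlated with the log2 mean signal at 0.998 or above, and it served as an alternative. Genome positions are those of mm9, per the file headers.

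Here, the log2 processed signal of each array was centred on its 75th percentile. Control spots and outlier spots were left out, and spots of 1 probe were averaged. Of 55681 probes, 21196 had a signal well above background in every array of 1 group or more, and the brightest probe stood for each of 16463 genes. All 9 arrays were fitted together with limma 3.58.1 (R 4.3.3, lmFit and eBayes), with Benjamini-Hochberg adjustment over all genes in each comparison at 0.05; the code was tested on simulated data. Array number, 3 a group, limits the precision.

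Same-numbered F4/80high and F4/80low arrays deviated together from their group means, with correlations of 0.13 to 0.23, beside -0.17 to 0.02 for different numbers. Arrays of PEC and tumour with the same number did not (-0.10 to 0.09). The labels do not say that equal numbers mark paired samples, and these weak correlations cannot settle it. The main fit takes the arrays as unpaired, and the replicate number was used as a block in alternatives. Alternatives were background correction, normalization, filter, probe choice, slide, pairing, the samples fitted and leaving out each array. All 28 genes are named; from each further list, up to 2 genes in each direction with the largest called differences could be named. The genes and lists were chosen with earlier results of these data known. Promoter sequences are RefSeq's.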

Additional observations from a re-analysis of the deposited data

How the results depend on the processing

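Over 19 to 21 alternatives for each gene and comparison, no called difference of a cholesterol gene changed sign. The size of the folds did depend on the background correction: with normexp, 10 of 21, 5 of 24 and 5 of 13 called folds in the 3 comparisons were more than 1.5 times smaller. Calls gained with normexp were Tm7sf2 in F4/80high TAM and Insig2 and Nr1h2 in F4/80low TAM, each lower than in PEC. Median centring gained these 3, Acat2 in F4/80low TAM against PEC and Srebf1 between the subsets. Between the subsets, normexp lost Acat2 and Hsd17b7, and median centring lost Hmgcs1, Hsd17b7 and Insig1. Quantile normalization gained Fdps and Srebf2 between the subsets and lost Hsd17b7 there. It also lost Fdps, Idi1, Insig1, Nsdhl and Tm7sf2 in F4/80low TAM against PEC. That left 19 cholesterol genes called there, beside 8114 of all 16463 genes. Fitting only the 2 groups compared left 20 there, beside 7700 of all genes. Of the called differences, 19 of 21 in F4/80high TAM against PEC, 11 of 24 in F4/80low TAM against PEC and 8 of 13 between the subsets passed under every alternative run. Leaving out each array in turn gave 20 to 22, 17 to 24 and 10 to 15 called cholesterol genes in the 3 comparisons, and 7015 to 9006, 6602 to 8468 and 3917 to 5510 called genes in all. With the slide as a block, 5632 genes (8737 before) were called in F4/80high TAM and 4907 (8541 before) in F4/80low TAM against PEC, and within slide 1 these were 4896 and 4127, with 12 cholesterol genes in F4/80low TAM in place of 24. In both settings only 1 PEC array shares a slide with the tumour arrays. Without the filter on dim probes 14388 of 36492 genes were called in F4/80low TAM against PEC, and 20 of the 28 cholesterol genes. With the filter set to all 9 arrays, 22 cholesterol genes remained tested and 8 were called between the subsets, in place of 13. Of these, 6 were lower and 2 higher, beside 1497 lower and 2588 higher among all 12790 genes tested. The median difference of the 22 genes was -0.18, beside -0.53 for the 28. Left out were Mvd, Lss, Cyp51, Hsd17b7, Dhcr7 and Stard4, whose F4/80high arrays were not all well above background. With the replicate block, 22, 23 and 13 cholesterol genes and 8587, 8348 and 5187 genes in all were called, and with the replicate block among the 6 tumour arrays, an alternative chosen after seeing the data, 15 and 4875. The block over all arrays ended the call of Insig1 in F4/80low TAM (adjusted p = 0.0613) and added Tm7sf2 in F4/80high TAM (adjusted p = 0.0439), that among the tumour arrays added Fdps and Nsdhl, and neither changed another call of a cholesterol gene.

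Centring arrays on their median moved the median difference of all genes to -0.16, -0.57 and 0.40 from 0.00, -0.09 and 0.08. Called genes were then split into 1931 higher and 6789 lower in F4/80low TAM against PEC (3741 and 4800 before) and 4061 and 1292 between the subsets (3065 and 2304 before). The called cholesterol genes were then 22 and 27, all lower than in PEC, and 3 higher and 8 lower between the subsets.

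Uncalled differences that changed sign were small. Abca1 in F4/80high TAM against PEC became -0.016 with normexp, -0.018 with median centring and -0.26 with the slide as a block or within slide 1, and ranged from -0.15 to 0.34 without single arrays. Pmvk in F4/80low TAM against PEC became -0.074 with normexp and -0.31 with median centring (-0.018 to 0.28 without single arrays), and Nr1h2 there became 0.011 with quantile normalization. Between the subsets, Abcg1 became 0.076 with normexp and 0.28 with median centring (-0.54 to 0.43 without single arrays), and Scap 0.073 and 0.29 (-0.19 to 0.062). Ebp became -0.23 with quantile normalization and -0.16 in the deposited table (-0.12 to 0.21 without single arrays), Nr1h2 -0.17 with quantile normalization (-0.039 to 0.19), and Mvk -0.028 in the deposited table. Soat1 ranged from -0.11 to 0.21 without single arrays. The cause was not tested. Signal near background limits Stard4, Cyp51 and Lss in F4/80high TAM.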
